A study of Mus musculus with 12 samples.

Results

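The comparison described here is that of RUNX1-ERt2 with ERt2 alone in GMP, the granulocyte-monocyte progenitors of bone marrow, from mice without functional Runx1 in their blood cells. It rests on 4 of the 12 arrays of the series, those whose titles name ERt2 (2 arrays) or RUNX1-ERt2 (2 arrays), and no measured value entered their choice. The other 8 arrays hold native GMP of Runx1+/+-Tg(vav-Cre) mice (wt, 4 arrays) and of Runx1fl/fl-Tg(vav-Cre) mice (ko, 4 arrays), in which the vav promoter drives Cre recombinase in blood cells. The native arrays entered the fit for its estimate of the spread and gave a second contrast, wt against ko, which shares no array with the first.

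Both transplanted groups were made from the same kind of donor. Runx1fl/fl-Tg(vav-Cre) mice received 150 mg/kg of the cytostatic drug 5-fluorouracil, and their marrow was taken on day 3. It was infected with a MIG retrovirus, which carried GFP together with RUNX1-ERt2 or with ERt2, and grafted into lethally irradiated mice. ERt2 is a hormone-binding domain of the estrogen receptor that responds to tamoxifen, and RUNX1-ERt2 is RUNX1 fused to that domain, so that tamoxifen makes the fusion protein active. After 6 weeks tamoxifen was injected at 49.5 µg/g on 3 days, and 24 h later viable GFP-positive GMP were sorted. The descriptions of all 4 samples name tamoxifen, although the protocol speaks of it for a part of the mice only. Strain, age, the number of animals per array, the copies of the retrovirus per cell and the amount of RUNX1 protein are not given in the sources used here. In both groups the cells were descendants of marrow that survived 5-fluorouracil and had passed through a transplant, which the native cells had not.

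RUNX1 is a DNA-binding transcription factor that pairs with CBFB and, depending on the gene and its partners, activates or represses transcription. It is known for its part in the emergence of blood stem cells and in the maturation of megakaryocytes, lymphocytes and myeloid cells, and genes such as Csf1r and Elane are textbook targets in the myeloid lineage. A GMP population holds cells at several stages, from cells close to the multipotent progenitors to promyelocytes that make primary granule proteins. GMP give rise to neutrophils and monocytes. In a bulk sample a lower level can come from fewer cells of a type or from less RNA per cell, and these cannot be told apart.

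Levels are log2 of the processed Cy3 intensity minus the 75th percentile of the array, so 0 is the level of that percentile. Differences are RUNX1-ERt2 minus ERt2 on that log2 scale, with the SE and the adjusted p of the limma fit, and a gene passed when the p, after Benjamini-Hochberg adjustment across the 17905 genes tested, was under 0.05. Nothing in the labels ties the arrays of a group to separate animals, so the p-values reflect only the spread among these samples, and that spread may be technical. The ERt2 arrays lay on slide 3 and the RUNX1-ERt2 arrays on slide 4, so slide and group cannot be told apart. The median processed signal was 53.6 and 43.1 on the ERt2 arrays and 54.6 and 59.7 on the RUNX1-ERt2 arrays, between 53.5% and 56.3% of probes were well above background, and no spot was saturated. Replicates had a correlation across genes of 0.990 with ERt2 and 0.989 with RUNX1-ERt2, and the median SD between the 2 arrays of a group was 0.141 in each.

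All 9 GMP markers (Kit, Cd34, Fcgr3, Mpo, Elane, Csf1r, Cebpa, Gfi1 and Irf8) were well above background on all 4 arrays, with a summed linear level, relative to the 75th percentile, of 581 and 617 with ERt2 and 413 and 327 with RUNX1-ERt2. Of the 9 GMP markers 5 were lower with RUNX1-ERt2 and 0 higher, with a median difference of −0.74. Markers of other cells were present at lower sums. The neutrophil markers (Ltf, Camp, Ngp, Mmp8 and Ly6g) summed to 232 and 147 with ERt2 and to 19.0 and 21.1 with RUNX1-ERt2. Camp and Ltf made up most of these sums, and none of the 5 neutrophil markers passed. The erythroid markers summed to 126 and 73.1 against 77.5 and 69.4, mostly through Hba-a1. Of the 4 tested erythroid markers 1 was higher and 0 lower, with a median difference of 1.10. Megakaryocyte markers summed to 17.9 and 8.64 with ERt2 and to 12.4 and 36.1 with RUNX1-ERt2, where replicate 2 was the high array. Basophil and mast cell markers summed to 45.1 and 28.9 against 34.1 and 44.8, macrophage markers to 2.08 and 1.12 against 0.326 and 0.439, stem cell markers to 3.07 and 2.14 against 3.03 and 1.94, T and NK markers to 0.597 and 0.522 against 0.429 and 0.732, and stroma and endothelium markers to 1.35 and 1.49 against 1.57 and 1.57. B lineage markers summed to 0.297 and 0.277 with ERt2 and to 8.06 and 22.6 with RUNX1-ERt2. Among them only Vpreb1 was well above background on all 4 arrays; Ms4a1 was not well above background on any of them, and Pax5 had no tested probe.

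The share of genes called moved with the GC content of the probe. Of 65 genes with a probe under 25% GC, 41.5% were higher and 4.62% lower with RUNX1-ERt2, and of 112 genes between 25% and 30%, 50.9% were higher and 1.79% lower. Among the 3229 genes with a probe of at least 50% GC the shares were 6.94% and 11.5%. The native comparison showed a smaller trend, with 21.5% higher and 13.8% lower in wt under 25% GC, and 11.9% and 10.9% at 50% or more. Among the 27 genes called higher through a probe under 25% GC, 7 had another tested probe of at least 35% GC, and that probe had the same sign in 2 of the 7, with a median difference of −0.13 against 1.57 for the low-GC probe. For the 291 genes called higher through a probe of at least 35% GC that had another such probe, the other probe had the same sign in 258. The probes of Cdk1, Gtse1 and Npm3 hold 18.3%, 21.7% and 25% GC. In an alternative fit with levels corrected for probe GC, 2024 genes were higher and 1350 lower, against 1830 and 1588 without the correction. The part of probe GC in the calls was not tested beyond this correction.

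**Figure D1:**
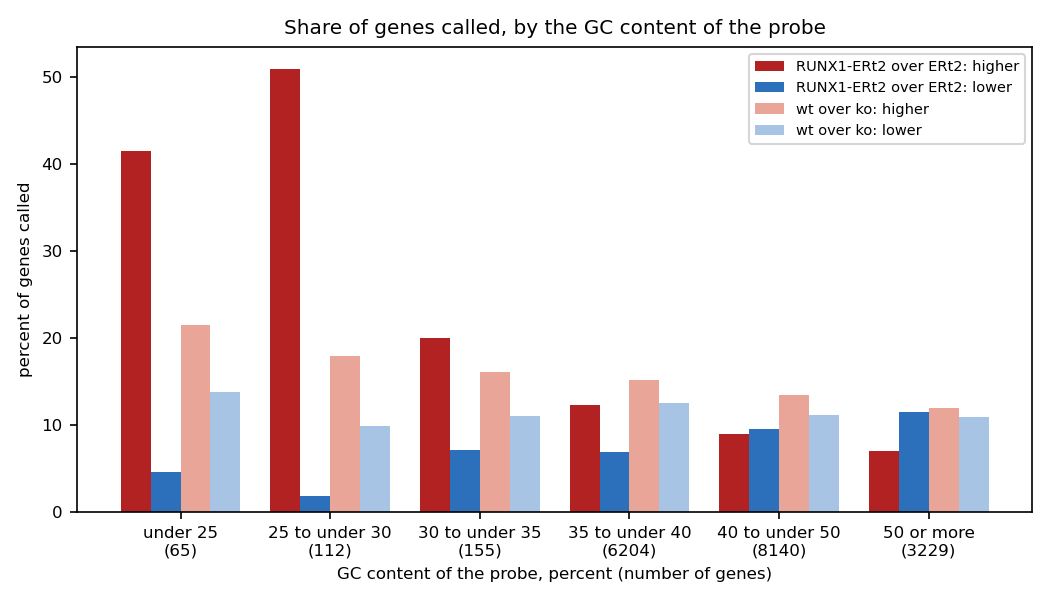
Bars show the percent of genes called higher or lower (y axis) in 6 bins of probe GC content (x axis, number of genes in brackets), for RUNX1-ERt2 over ERt2 (dark) and for native wt over ko (pale). Calls of higher genes reach 41.5% and 50.9% in the bins of lowest GC in the transplanted comparison, against 21.5% and 17.9% in the native one.

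With RUNX1-ERt2, 13 of 24 monocyte and macrophage genes, 7 of 18 primary granule genes and 16 of 36 cytokine receptor genes were lower, and 8 of 24 p53 target genes and the surrogate light chain genes Vpreb1, Vpreb2 and Igll1 were higher. Of 17905 genes, 1830 were higher (10.2% of those tested) and 1588 were lower (8.87%), and 19.1% passed in either direction. The fitted change was at least 2-fold for 1016 of the higher and 824 of the lower genes, and at least 4-fold for 392 and 275. The lower group was not well above background on either of its arrays for 296 of the higher and 130 of the lower genes, so their size is known only as a bound. The arrays of the groups did not overlap for any gene that passed, but neither did they for 58.9% of all genes tested. Among the genes that passed, 77 were not well above background on any of the 4 arrays, as were 861 (4.81%) of all genes tested. Without any 1 of the 4 arrays between 1244 and 1376 genes were higher, and 971 (without ERt2 replicate 1), 1058 (without ERt2 replicate 2), 1052 (without RUNX1-ERt2 replicate 1) or 935 (without RUNX1-ERt2 replicate 2) were lower. In a fit of the 4 arrays alone 886 were higher and 771 lower, and with normexp background correction 726 and 665.

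Runx1, Runx2 and Runx3 were lower with RUNX1-ERt2. Runx1 measured 3.29 and 3.14 on the ERt2 arrays and 2.33 and 1.92 on the RUNX1-ERt2 arrays. Both ERt2 arrays were the higher ones, and the difference was −1.09 ± 0.24 (SE; limma adjusted p = 0.0123). The sources used here do not place this probe relative to the floxed segment or to the sequence in the retrovirus, so it checks neither the deletion nor the re-expression. This call ended when ERt2 replicate 1 was left out (adjusted p = 0.0701), when RUNX1-ERt2 replicate 2 was left out (0.0864) and when the native arrays had no slide term (0.155). Runx3 lay at −0.29 on both ERt2 arrays and at −2.01 and −2.34 with RUNX1-ERt2, and Runx2 at −1.94 and −2.13 against −3.18 and −3.52. Neither gene had overlapping groups. Cbfb, the partner of all RUNX proteins, measured 4.24 and 4.62 against 4.15 and 4.24 and did not pass (−0.23 ± 0.17, adjusted p = 0.392). The list of the Runx family and its partners had 6 tested members, of which 3 were lower (50%, against 8.87% of all genes) and 0 higher. The median was −0.66, against 0 over all genes.

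The 12 largest falls among genes measured in both groups included several products of maturing myeloid cells. F13a1, the A subunit of coagulation factor XIII and a product of monocytes and platelets, measured 5.70 and 6.01 with ERt2 and 1.23 and −0.32 with RUNX1-ERt2. Its level on both ERt2 arrays was far above both RUNX1-ERt2 arrays, a fall by 5.40 (SE 0.50, adjusted p = 0.000119), and its other probe fell by 6.14. Slpi, a secreted inhibitor of neutrophil proteases, went from 5.74 and 5.77 to 1.30 and 0.57, a difference of −4.82 ± 0.38 (adjusted p = 5.07e-05). Fcnb, a ficolin of myeloid cells that binds microbial sugars, went from 1.70 and 1.45 to −2.79 and −3.03 (−4.48 ± 0.88, adjusted p = 0.00753). Mefv encodes pyrin, an inflammasome sensor, and measured 2.49 and 2.90 against −0.55 and −2.21 (−4.08 ± 0.59). The remaining members were Tctex1d1, of the dynein light chain family (−5.47 ± 1.01), the glycosyltransferase-domain gene Glt1d1 (−5.20 ± 0.72), the intestinal and neutrophil glucosidase gene Mgam (−4.43 ± 0.74), the plasma protein precursor gene Ambp (−4.40 ± 0.94), the melanosome trafficking gene Mreg (−4.26 ± 0.53), the eosinophil chemokine gene Ccl24 (−4.24 ± 0.57), the chitinase-like secreted protein gene Chil3 (−4.15 ± 1.14) and Tlr1, a receptor of bacterial lipopeptides (−4.08 ± 0.65). Tctex1d1, Glt1d1, Mgam, Ambp, Mreg, Ccl24 and Tlr1 were well above background on only 1 of the 2 RUNX1-ERt2 arrays. Chil3 passed narrowly (adjusted p = 0.0325) and did not pass without any 1 of the 4 arrays (highest 0.136, without ERt2 replicate 1), nor did Ambp without ERt2 replicate 1 (0.0551). In the fit of the 4 arrays alone the calls of Tctex1d1, Mgam and Ambp ended as well (adjusted p = 0.0810, 0.0603 and 0.0869).

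Some genes were not well above background on any RUNX1-ERt2 array, so only a bound can be given, the ERt2 mean against the lowest level that counts as well above background on the RUNX1-ERt2 arrays. Clec4b2, a C-type lectin of myeloid cells, was at least 22.8-fold lower. Olfml2b, an extracellular matrix gene, was at least 13.7-fold lower, Rgs8, a regulator of G protein signals, at least 12.9-fold, and Tmc7, of the transmembrane channel-like family, at least 12.4-fold. Both ERt2 arrays measured these genes well above background, at −0.66 and −1.17 for Clec4b2 and −2.07 and −1.44 for Rgs8. The call of Rgs8 held in each alternative fit, while that of Olfml2b ended without any 1 array (highest adjusted p = 0.142, without ERt2 replicate 1), and those of Clec4b2 and Tmc7 without ERt2 replicate 1 (adjusted p = 0.0584 and 0.0715) or RUNX1-ERt2 replicate 2 (0.0735 and 0.0718).

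The largest rise among genes measured in both groups was that of Vpreb1. It was followed by Tac2, the gene of the tachykinin neurokinin B, which measured −4.19 and −5.42 with ERt2 and 0.73 and 0.64 with RUNX1-ERt2. The ERt2 arrays lay well below both others, and Tac2 was well above background on 1 of them (difference 5.49 ± 1.02, adjusted p = 0.00562). Bex4, of the brain-expressed X-linked family, rose from −2.83 and −3.65 to 1.14 and 1.62 (4.62 ± 0.50, adjusted p = 0.000296). C2cd4a, a nuclear C2 domain gene, measured −4.59 and −4.44 against 0.47 and −0.39 (4.55 ± 0.42), and its other probe differed by 6.76. Itgax, the integrin CD11c of dendritic cells and some macrophages, rose from −2.0 and −3.08 to 1.35 and 2.38 (4.40 ± 0.43, adjusted p = 0.000161). Actin-binding proteins were in this group, Scin (4.41 ± 0.59) and Gsn (4.04 ± 0.32), which sever actin filaments, and Cttn, cortactin (3.90 ± 0.73, other probe 1.30). Scin was well above background on only 1 of the 2 ERt2 arrays. Gsn measured 0.93 and −0.07 with ERt2 and 4.50 and 4.43 with RUNX1-ERt2, with another probe at 4.33, so its 2 RUNX1-ERt2 arrays lay close together. The rest were Ptgds, a prostaglandin D synthase (4.11 ± 0.34), Plpp1, a lipid phosphatase (4.06 ± 0.67), Prnp, the prion protein (3.81 ± 0.42), and Atp1b2, a sodium pump subunit (3.81 ± 0.77). The call of Atp1b2 ended without ERt2 replicate 2 (adjusted p = 0.0609) and without RUNX1-ERt2 replicate 1 (0.0554), and those of Scin and Cttn in the fit of the 4 arrays alone (0.0548 and 0.0627).

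**Figure D2:**
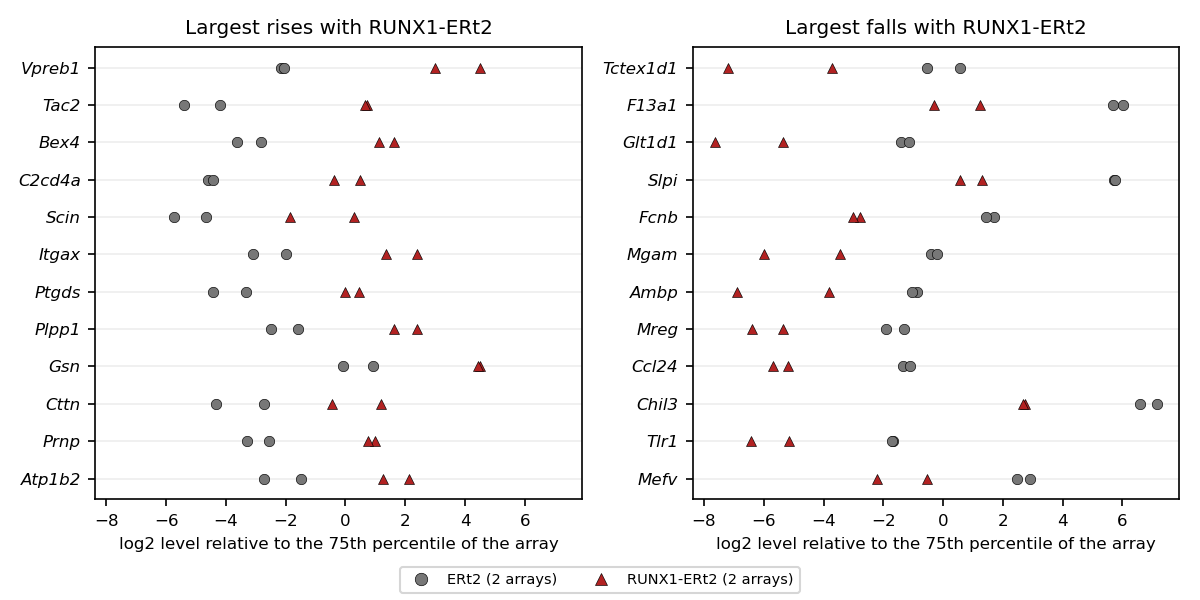
Points show the level of the 12 genes with the largest rises (left) and falls (right) on each ERt2 array (grey circles) and each RUNX1-ERt2 array (red triangles), as log2 relative to the 75th percentile of the array. For every gene drawn both arrays of one group lie above both arrays of the other, for example F13a1 at 5.70 and 6.01 with ERt2 and 1.23 and −0.32 with RUNX1-ERt2.

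The bound ran the other way for genes below that limit on both ERt2 arrays. Clic3, an intracellular chloride channel gene, was at least 47.3-fold higher with RUNX1-ERt2, Slc27a2, an acyl-CoA synthetase of fatty acid transport, at least 45.7-fold, Vpreb2 at least 34.4-fold and P2rx5, an ATP-gated ion channel, at least 30.5-fold. On the RUNX1-ERt2 arrays Clic3 lay at 0.01 and 0.76, Slc27a2 at 0.01 and 0.65 and P2rx5 at −1.0 and 0.49. In native GMP the wt means were −6.17 ± 0.38 (SD, n = 4) for Clic3, which was well above background on 1 of those 4 arrays, and −4.40 ± 0.40 for Slc27a2, while P2rx5 was not well above background on any native array. Levels of native and transplanted cells were not tested against each other.

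The B lineage list split into rises of the surrogate light chain and falls of other members. VpreB and lambda5, encoded by Vpreb1, Vpreb2 and Igll1, pair with the immunoglobulin heavy chain in the pre-B cell receptor. Vpreb1 measured −2.16 and −2.07 with ERt2 and 3.00 and 4.50 with RUNX1-ERt2. All 4 arrays were well above background and the groups lay far apart, a difference of 5.86 ± 0.45 (adjusted p = 3.89e-05). Vpreb2 lay at −6.93 and −6.94 against −0.89 and 0.73, and Igll1 at −5.64 and −6.00 against −1.28 and 0.14. Both were below background with ERt2, so that Igll1 was at least 24.4-fold higher, and on each gene RUNX1-ERt2 replicate 2 was the higher array. In native GMP Vpreb2 measured −2.53 ± 1.53 (SD, n = 4) in wt and −2.95 ± 1.14 in ko, levels between those of the transplanted groups. Dntt, the terminal transferase that adds bases at V(D)J joins, went the other way, from −0.80 and −0.55 to −2.96 and −4.34 (−2.98 ± 0.44, adjusted p = 0.00165), and Cd79b fell by 0.75 (SE 0.17). Of 16 tested members 3 were higher and 3 lower (18.8% each, against 10.2% and 8.87% of all genes), with a median of 0.24. The higher count was 3 without any 1 of the 4 arrays and in the fit of the 4 arrays alone, while the lower count was 1 to 3 without any 1 array (1 without RUNX1-ERt2 replicate 2) and 1 in that fit, and the median turned to −0.40 without ERt2 replicate 2. The summed B lineage markers, to which Vpreb1 belongs, moved from 0.297 and 0.277 to 8.06 and 22.6. Cd79a, a signalling subunit of the B cell receptor, differed by 0.48 ± 0.34 and did not pass, and Ms4a1 was not well above background on any of the 4 arrays.

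The promoters of Vpreb1 and Vpreb2 are shown because these paralogs, both on chromosome 16, rose together. The 250 bases before the RefSeq start (GRCm38.p6) are chr16:16869256-16869505 on the minus strand for Vpreb1 and chr16:17980315-17980564 on the plus strand for Vpreb2, and capitals mark their longest shared run, of 91 bases.
Vpreb1: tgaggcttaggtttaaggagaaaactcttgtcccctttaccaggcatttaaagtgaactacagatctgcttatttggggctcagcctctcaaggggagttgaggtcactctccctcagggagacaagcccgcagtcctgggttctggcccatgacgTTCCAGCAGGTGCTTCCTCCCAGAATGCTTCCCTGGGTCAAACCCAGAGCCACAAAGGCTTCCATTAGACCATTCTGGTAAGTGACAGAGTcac
Vpreb2: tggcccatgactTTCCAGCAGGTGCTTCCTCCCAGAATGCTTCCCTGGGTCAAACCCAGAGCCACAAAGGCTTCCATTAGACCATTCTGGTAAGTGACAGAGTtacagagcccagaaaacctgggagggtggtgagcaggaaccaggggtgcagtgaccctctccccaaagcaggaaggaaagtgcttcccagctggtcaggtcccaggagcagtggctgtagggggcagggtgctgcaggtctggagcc
The run spans positions −94 to −4 relative to the start of Vpreb1 and −238 to −148 relative to that of Vpreb2, within an overlap of 106 bases of which 98.1% are identical. Neither window holds the RUNX core letters described below. The array's 60-base probes for the paralogs share no run longer than 6 bases.

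Among 24 tested monocyte and macrophage genes, 13 were lower (54.2%, against 8.87% of all genes) and 0 higher. The median difference was −1.61. Csf1r, the receptor of M-CSF, measured 4.44 and 4.64 with ERt2 and 2.57 and 1.62 with RUNX1-ERt2. The groups did not overlap, the difference was −2.44 ± 0.41 (adjusted p = 0.00352), and the other probes of Csf1r differed by −2.54 and −1.51. Mrc1, the macrophage mannose receptor, lay at −1.59 and −2.41 against −4.96 and −4.69 (−2.83 ± 0.36), a call that ended without the slide term (adjusted p = 0.169). The macrophage markers Adgre1, C1qa, C1qb, C1qc and Mrc1 all passed, by −1.64 to −2.83, at low levels whose sum was 2.08 and 1.12 with ERt2 and 0.326 and 0.439 with RUNX1-ERt2. Their part in the falls of other genes was not tested. Between 5 and 8 members were lower without any 1 of the 4 arrays, 8 in the fit of the 4 arrays alone and 3 without the slide term. Irf8, a transcription factor of monocyte and dendritic cell development, measured 3.64 and 3.86 against 3.78 and 3.65, overlapping between the groups.

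Primary granules are made in promyelocytes and hold proteases and myeloperoxidase. Of 18 tested members of the primary granule list 7 were lower (38.9%, against 8.87% of all genes) and 0 were higher. Each of the 18 had a difference below 0 (median −0.58). Elane, neutrophil elastase, measured 6.96 and 7.11 with ERt2 and 5.24 and 4.07 with RUNX1-ERt2. Its groups did not overlap, and the difference was −2.38 ± 0.52 (adjusted p = 0.0123). Igsf6, a myeloid membrane protein, lay at 4.33 and 4.58 against 2.25 and 0.65 (−3.01 ± 0.57, adjusted p = 0.00618), and Ctsg, cathepsin G, at 8.16 and 8.44 against 7.31 and 6.47 (−1.41 ± 0.33). RUNX1-ERt2 replicate 2 was the lower array for these 3 genes. Mpo and Cebpe did not pass, at −0.38 ± 0.20 and −0.49 ± 0.36. Elane lost its call without ERt2 replicate 1 (adjusted p = 0.0521), ERt2 replicate 2 (0.0627) or RUNX1-ERt2 replicate 2 (0.0860), Igsf6 in the fit of the 4 arrays alone (0.0549), and the count ranged from 3 to 7 without any 1 array.

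Late neutrophil genes had the wider spread. Of 29 tested members 8 were lower (27.6%, against 8.87% of all genes) and 0 higher, with a median of −1.42. Lyz2, lysozyme, measured 3.40 and 2.22 against 0.82 and 0.19 (−2.30 ± 0.51, adjusted p = 0.0123), Anxa1, an anti-inflammatory phospholipid-binding protein, 5.78 and 5.73 against 3.91 and 3.54 (−2.03 ± 0.34), and Cyba, a subunit of the NADPH oxidase, 5.71 and 5.78 against 4.24 and 4.41 (−1.42 ± 0.16, adjusted p = 0.000422). None of these 3 had overlapping groups. The secondary granule gene Camp measured 7.29 and 6.82 against 3.47 and 3.78, a difference of −3.43 ± 1.09 that did not pass (adjusted p = 0.0567), and Ltf, lactoferrin, 5.50 and 4.45 against 2.08 and 1.97 (−2.96 ± 1.32, adjusted p = 0.161). S100a8, a calcium-binding protein of neutrophils, differed by −2.44 ± 0.82 (adjusted p = 0.0711). These genes varied between the native arrays, which share the estimate of the spread, and in the fit of the 4 arrays alone 13 members were lower. Between 4 and 6 were lower without any 1 array, and Lyz2 did not pass without ERt2 replicate 1 (adjusted p = 0.0839) or RUNX1-ERt2 replicate 2 (0.0817). The sum of the neutrophil markers went from 232 and 147 to 19.0 and 21.1. Camp and Ltf, given above, made up most of it, so it is no observation apart from them. None of the 5 markers passed, and the part of their sum in these lists was not tested.

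Of 36 tested cytokine receptor genes 16 were lower (44.4%, against 8.87% of all genes) and 1 higher (2.78%, against 10.2%). The median was −0.67. Il21r, the interleukin 21 receptor, went from −0.12 and −0.29 to −2.74 and −3.43 (−2.88 ± 0.25, adjusted p = 8.38e-05), and Ifngr2, a chain of the interferon gamma receptor, from 1.46 and 1.67 to −0.28 and −0.91 (−2.15 ± 0.25). Both had groups far apart, and both calls held in each alternative fit. Il6ra, the interleukin 6 receptor, was lower as well (−1.50 ± 0.21). Il10rb, a chain of the interleukin 10 receptor, fell by 1.58 (SE 0.13), and Csf2ra and Csf2rb, the chains of the GM-CSF receptor, by 1.16 (SE 0.21) and 0.86 (SE 0.25). Csf3r, the receptor of G-CSF, did not pass, at 5.69 and 5.77 against 5.77 and 5.76. Il1r1, an interleukin 1 receptor, was the member that rose (1.07 ± 0.26). It did not pass in the fit of the 4 arrays alone or with normexp, where 0 members were higher. Without any 1 array 11 to 13 members were lower, and 7 in the fit of the 4 arrays alone. The neutrophil markers (from 232 and 147 to 19.0 and 21.1) and the macrophage markers (from 2.08 and 1.12 to 0.326 and 0.439) summed to less with RUNX1-ERt2 beside this list, the Toll-like receptor list, the C-type lectin list and the glycolysis list, and their part in these lists was not tested. None of the 5 neutrophil markers passed.

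Of 26 Toll-like receptor and NF-kB genes 6 were lower (23.1%, against 8.87% of all genes) and 0 higher, with a median of −0.23. Beside Tlr1, Tlr4, the receptor of bacterial lipopolysaccharide, lay at −1.52 and −1.13 against −2.70 and −2.83 (−1.44 ± 0.31), and its co-receptor Ly96 at −1.71 and −1.52 against −3.03 and −2.95 (−1.37 ± 0.23, adjusted p = 0.00308). Both ERt2 arrays were the higher ones for each gene. Of 16 C-type lectin and CD200 receptor genes 3 were lower (18.8%, against 8.87% of all genes) and 0 higher (median −1.08). These were Clec4b1 (−3.42 ± 0.57), Clec7a, the beta-glucan receptor Dectin-1, at 1.42 and 1.79 against −0.88 and −2.18 (−3.13 ± 0.54), and Clec4d (−1.76 ± 0.19). Clec4b1 was well above background on only 1 of the 2 RUNX1-ERt2 arrays. The call of Tlr4 ended without ERt2 replicate 2 (adjusted p = 0.0744), RUNX1-ERt2 replicate 2 (0.0634) or the slide term (0.0701), that of Clec4d without the slide term (0.0686), and that of Clec4b1 in the fit of the 4 arrays alone (0.0513). Chemokine and chemokine receptor genes had 2 of 22 lower (9.09%, near the 8.87% of all genes) and 0 higher. The lower ones were Ccl9, a chemokine of myeloid cells, at 4.52 and 4.61 against 2.44 and 2.37 (−2.16 ± 0.25), and Cx3cr1, the fractalkine receptor, at −2.42 ± 0.52. The Cx3cr1 call did not pass without ERt2 replicate 2 (adjusted p = 0.0675), RUNX1-ERt2 replicate 2 (0.0677) or the slide term (0.0837).

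**Figure D3:**
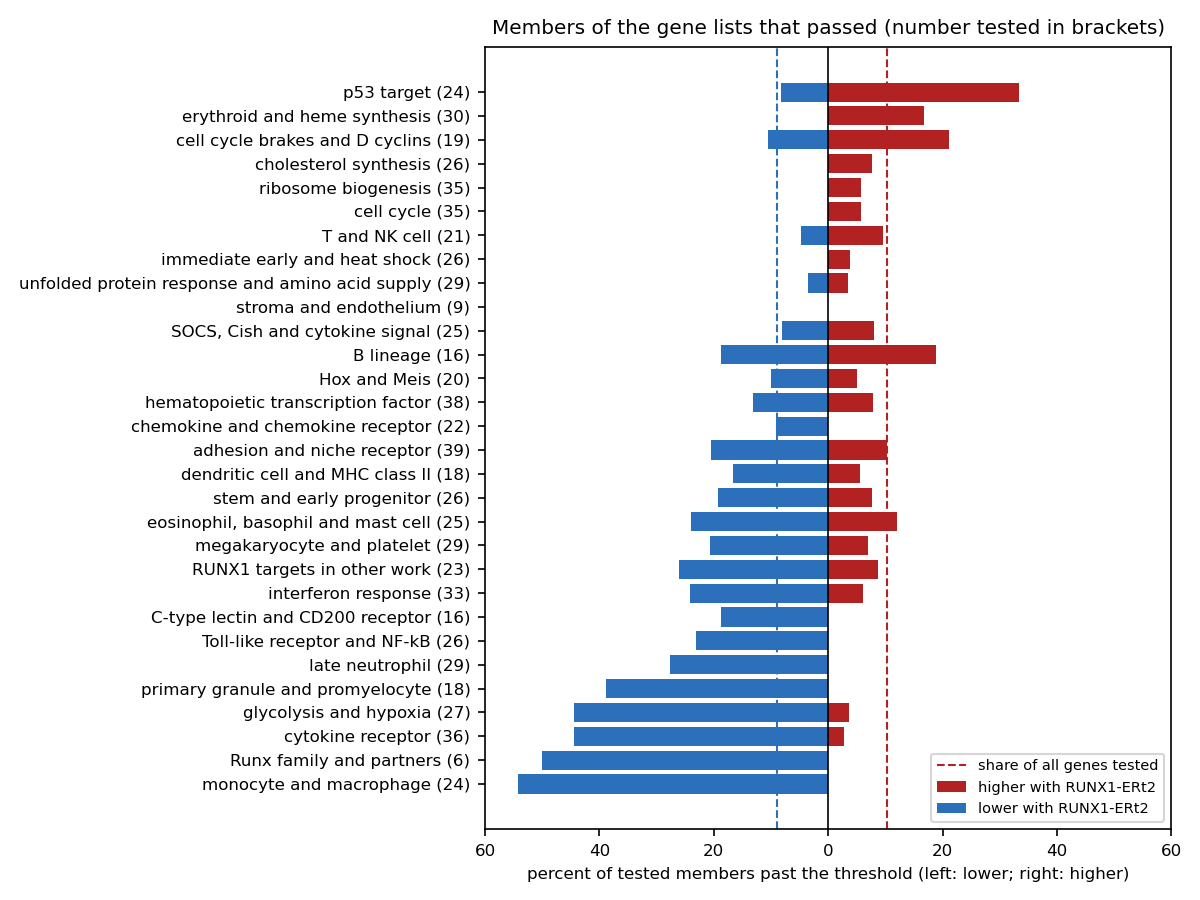
Bars show the percent of the tested members of each gene list that were higher (right, red) or lower (left, blue) with RUNX1-ERt2, with the number tested in brackets and dashed lines at the shares of all genes, 10.2% and 8.87%. Monocyte and macrophage genes reach 54.2% lower and p53 target genes 33.3% higher.

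Of 30 tested erythroid and heme synthesis genes 5 were higher (16.7%, against 10.2% of all genes) and 0 lower. The median difference was 1.31, and 25 members had a difference above 0. Gata1, the master transcription factor of red cells and megakaryocytes, measured 2.39 and 1.43 with ERt2 and 3.94 and 3.73 with RUNX1-ERt2. The difference was 1.93 ± 0.47 (adjusted p = 0.0201), and ERt2 replicate 2 was the lowest array. Car2, carbonic anhydrase 2, went from 3.64 and 2.34 to 5.54 and 4.85 (2.21 ± 0.57), and Uros, an enzyme of heme synthesis, from 0.96 and 0.78 to 2.47 and 1.69 (1.21 ± 0.26). Products of late red cells did not pass, with Hba-a1, alpha globin, at 6.91 and 6.14 against 6.12 and 5.99 and Alas2 at 2.19 and 1.13 against 1.86 and 1.61. The summed erythroid markers were 126 and 73.1 with ERt2 and 77.5 and 69.4 with RUNX1-ERt2, and Hba-a1 made up most of each sum. Of the 4 tested markers 1 was higher and 0 lower, with a median difference of 1.10. Between 0 and 3 members were higher without any 1 of the 4 arrays, and 0 in the fit of the 4 arrays alone. Gata1 and Car2 lost their calls without ERt2 replicate 2 (adjusted p = 0.127 and 0.153), RUNX1-ERt2 replicate 1 (0.0916 and 0.132) or RUNX1-ERt2 replicate 2 (0.0690 and 0.0527).

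Megakaryocyte and platelet genes moved both ways, with 2 of 29 higher (6.9%) and 6 lower (20.7%), against 10.2% and 8.87% of all genes. The median was 0.08. Gp1ba, a subunit of the von Willebrand factor receptor, rose from −2.52 and −4.03 to −1.50 and 0.10 (2.57 ± 0.58), and Gata1 is shared with the erythroid list. Treml1, a receptor of platelet granules, measured 2.95 and 1.01 against −0.62 and 0.19 (−2.19 ± 0.56), Selp, P-selectin, 1.30 on both ERt2 arrays against −0.24 and −0.32 (−1.58 ± 0.33), and Ptgs1, cyclooxygenase 1, 3.23 and 3.22 against 1.12 and 1.73 (−1.80 ± 0.24, adjusted p = 0.000959). The array spread was uneven, since Pf4, platelet factor 4, lay at 0.81 and −0.06 with ERt2 and at 1.23 and 4.20 with RUNX1-ERt2, with replicate 2 standing above the rest, as did the sum of the megakaryocyte markers. Gp1ba did not pass without ERt2 replicate 2 (adjusted p = 0.0927) or RUNX1-ERt2 replicate 2 (0.0920) or with the replicate block (0.0540), and Treml1 without ERt2 replicate 1 (0.109) or RUNX1-ERt2 replicate 1 (0.137) or with the block (0.0547). The median of the list ranged from −0.63 without RUNX1-ERt2 replicate 2 to 0.81 without RUNX1-ERt2 replicate 1, so its direction turned with these arrays. The lower count was 1 without ERt2 replicate 1 and 2 without RUNX1-ERt2 replicate 1, and the higher count was 6 without RUNX1-ERt2 replicate 1 and 0 without either replicate 2.

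Transcription factors of blood cells had 3 of 38 higher and 5 lower (7.89% and 13.2%, against 10.2% and 8.87% of all genes, median −0.14). Gfi1b, a repressor of the erythroid and megakaryocyte lineages, rose from 2.48 and 1.01 to 3.86 and 3.70 (2.04 ± 0.47, adjusted p = 0.0157), while its paralog Gfi1, which acts in granulocyte maturation, fell from 4.30 and 4.32 to 3.36 and 2.35 (−1.45 ± 0.41, adjusted p = 0.0363). The pair thus moved in opposite directions, and neither gene had overlapping groups. Cebpb and Cebpd, of the C/EBP family, fell by 1.05 (SE 0.24) and 1.04 (SE 0.31), and Lyl1, a helix-loop-helix factor of progenitors, by 1.43 (SE 0.17). Cebpa and Spi1, which encode C/EBP alpha and PU.1, differed by 0.08 ± 0.22 and −0.27 ± 0.36 and did not pass. Gfi1b lost its call without ERt2 replicate 2 (adjusted p = 0.0836), RUNX1-ERt2 replicate 1 (0.0737) or replicate 2 (0.0607), and Gfi1 without ERt2 replicate 1 (0.120), ERt2 replicate 2 (0.124) or RUNX1-ERt2 replicate 2 (0.214). Without any 1 array the list had 0 to 3 members higher and 2 or 3 lower.

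Among 25 eosinophil, basophil and mast cell genes 3 were higher (12%, near the 10.2% of all genes) and 6 lower (24%, against 8.87%). The median was −0.74. The eosinophil granule genes Prg2 and Prg3 fell, Prg2 from 4.94 and 5.67 to 2.51 and 1.46 (−3.32 ± 0.93) and Prg3 from 0.59 and 1.72 to −1.24 and −2.57 (−3.06 ± 0.83). Other eosinophil granule genes did not pass, with Epx, eosinophil peroxidase, at −2.68 (adjusted p = 0.211) and the ribonuclease genes Ear1, Ear2 and Ear6 at −2.05, −1.79 and −1.54. Hdc, which makes histamine, measured 5.73 and 6.00 against 3.48 and 3.36 (−2.44 ± 0.24, adjusted p = 0.000169). Other basophil and mast cell members rose, Ms4a2, the beta chain of the IgE receptor, from −2.63 and −3.27 to −0.25 and −0.22 (2.71 ± 0.28, adjusted p = 0.000233), and Prss34, a basophil protease, from −2.47 and −0.90 to 0.25 and 2.97 (3.29 ± 0.79). Mcpt8, another basophil protease, fell by 0.90 (SE 0.17). Prg2 and Prg3 did not pass without ERt2 replicate 1 (adjusted p = 0.0840 and 0.0558), ERt2 replicate 2 (0.155 and 0.164) or RUNX1-ERt2 replicate 2 (0.171 and 0.172), Prg2 also without RUNX1-ERt2 replicate 1 (0.0664), and Prss34 without ERt2 replicate 1 (0.120) or RUNX1-ERt2 replicate 2 (0.0800). The count of lower members was 3 or 4 without any 1 array.

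Of 24 tested p53 target genes 8 were higher (33.3%, against 10.2% of all genes) and 2 lower (8.33%, near 8.87%). The median was 0.34. Cdkn1a, the cyclin-dependent kinase inhibitor p21, measured −1.81 and −1.69 with ERt2 and 1.10 and 0.87 with RUNX1-ERt2. The arrays of each group lay close together and the groups far apart, at 2.73 ± 0.37 (adjusted p = 0.00113), with other probes at 2.89 and 3.08. Phlda3, an inhibitor of AKT signals, rose from −0.39 and −1.13 to 2.41 and 2.00 (2.97 ± 0.34, adjusted p = 0.000403), Zmat3, an RNA-binding protein, by 2.58 (SE 0.37), and Perp, a membrane protein of cell death and adhesion, by 2.28 (SE 0.33). Gtse1 was at least 3.09-fold higher, through a probe with 21.7% GC that was not well above background with ERt2. Mdm2, the ubiquitin ligase of p53, did not pass (3.05 and 3.00 against 3.04 and 3.17), and the death receptor gene Fas fell by 1.00 (SE 0.17). Between 6 and 8 members were higher without any 1 array.

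Cell cycle brakes and D cyclins had 4 of 19 higher (21.1%, against 10.2% of all genes) and 2 lower (10.5%, against 8.87%). The median was 0.24. The higher count was 2 or 3 without any 1 array (2 without ERt2 replicate 1, ERt2 replicate 2 or RUNX1-ERt2 replicate 1) and 1 with normexp, and the lower count was 4 without RUNX1-ERt2 replicate 2. Beside Cdkn1a, Cdkn2a, the locus of p16 and p19ARF, went from −2.23 and −3.02 to 0.06 and −0.06 (2.63 ± 0.66, adjusted p = 0.0234; other probe 2.49), and Cdkn2b, p15, which was not well above background with ERt2, was at least 2.22-fold higher, a call that ended with normexp (adjusted p = 0.770). Ccnd1, cyclin D1, fell from 0.83 and 0.35 to −1.46 and −1.30 (−1.96 ± 0.26, adjusted p = 0.000908), and Btg1, an antiproliferative gene, by 0.87 (SE 0.16). The cell cycle list itself had 2 of 35 higher, Cdk1 and Cdc6, and 0 lower, with a median of 0.13 (5.71% higher, against 10.2% of all genes). Cdk1, the kinase that drives mitosis, differed by 3.09 ± 0.22 through a probe of 18.3% GC, and its other probes by −0.24 and −0.04. Cdc6, which loads the replication helicase, rose by 1.34 (SE 0.21), with another probe at 0.10. Ribosome biogenesis genes were similar, with Npm3 (25% GC, well above background on 1 of the 4 arrays) and Polr1c (0.48 ± 0.12) of 35 higher (5.71%) and 0 lower (median 0.07). Cdkn2a did not pass without any 1 of the 4 arrays (highest adjusted p = 0.127, without ERt2 replicate 2) or with normexp (0.130), and Polr1c without ERt2 replicate 1 (0.136) or RUNX1-ERt2 replicate 1 (0.135).

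**Figure D4:**
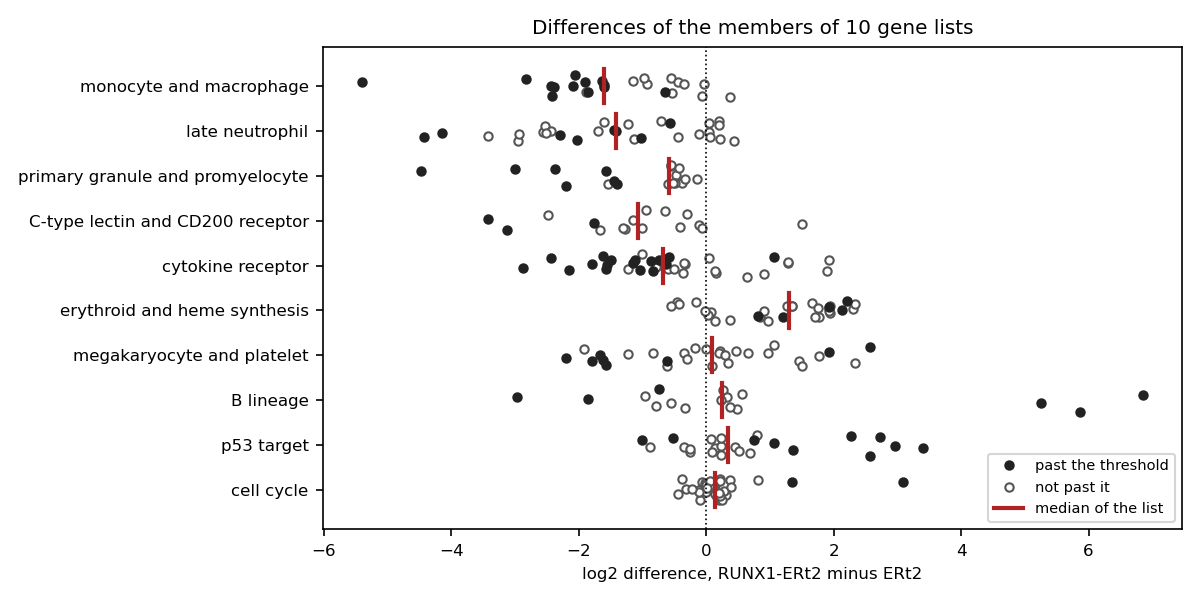
Points show the difference RUNX1-ERt2 minus ERt2 (x axis, log2) of each tested member of 10 gene lists (y axis, with vertical jitter), filled where the gene passed, and red lines mark the median of the list. The medians lie at −1.61 for monocyte and macrophage genes, −1.42 for late neutrophil genes and 1.31 for erythroid genes, while cell cycle genes lie around 0.13.

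Glycolysis and hypoxia genes were lower in 12 of 27 cases (44.4%, against 8.87% of all genes) and higher in 1 (3.7%, against 10.2%). The median was −0.53. Hk3, the hexokinase of myeloid cells, went from 4.72 and 4.87 to 3.37 and 2.62 (−1.81 ± 0.34), Pkm, pyruvate kinase, from 5.58 and 5.88 to 4.30 and 4.17 (−1.49 ± 0.23, adjusted p = 0.00206), and Vegfa, an angiogenic growth factor, from 0.79 and 0.94 to −0.83 and −1.22 (−1.89 ± 0.40). Each of the 3 had both ERt2 arrays on top. Of the other 24 members 9 passed as lower, such as Aldoa, aldolase (−0.53 ± 0.16, adjusted p = 0.0488), while the glucose transporter gene Slc2a3 rose by 1.11 (SE 0.20). The count was 3 to 7 without any 1 array, 7 with a correction on probe GC and 5 in the fit of the 4 arrays alone, and Vegfa did not pass without ERt2 replicate 2 (adjusted p = 0.0566) or RUNX1-ERt2 replicate 2 (0.0679). Cholesterol synthesis genes had 2 of 26 higher (7.69%, against 10.2% of all genes), Lss (1.19 ± 0.21) and Srebf1 (0.65 ± 0.19), and 0 lower (median 0.20). The higher count was 7 without ERt2 replicate 2 and 1 without ERt2 replicate 1 or RUNX1-ERt2 replicate 2. Lss, lanosterol synthase, did not pass with normexp (0.0579), and Srebf1 did not in most alternatives. Of 29 genes of the unfolded protein response and amino acid supply 1 was higher and 1 lower (3.45% each, against 10.2% and 8.87% of all genes), with a median of −0.32. The stress pseudokinase gene Trib3 rose (2.34 ± 0.36) and the serine synthesis gene Phgdh fell (−0.79 ± 0.17). Trib3 did not pass in the fit of the 4 arrays alone (adjusted p = 0.0727), nor Phgdh without ERt2 replicate 2 (0.0849) or RUNX1-ERt2 replicate 2 (0.0695).

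Interferon response genes were lower in 8 of 33 cases (24.2%, against 8.87% of all genes) and higher in 2 (6.06%, against 10.2%). The median was −0.15. The antiviral synthetases led, Oas3 from −0.81 and −0.66 to −3.50 and −3.67 (−2.86 ± 0.21, adjusted p = 3.48e-05) and Oas2 from 1.42 and 1.68 to −0.76 and −0.83 (−2.34 ± 0.34, adjusted p = 0.00142). The groups of both genes were tight and far apart. Usp18, which removes ISG15 and dampens interferon signals, rose from −0.99 and −0.69 to 0.42 and 0.96 (1.53 ± 0.30), and Ifit2 (−0.65 ± 0.19) and Rsad2 (−0.75 ± 0.22) fell by less than 1. The lower count was 3 or 4 without any 1 array, and Usp18 did not pass without ERt2 replicate 1 (adjusted p = 0.0511), RUNX1-ERt2 replicate 2 (0.0553) or the slide term (0.0512). In the list of SOCS, Cish and cytokine signals 2 of 25 were higher and 2 lower (8% each, near the 10.2% and 8.87% of all genes, median −0.15). Cish, a feedback inhibitor of STAT5 signals, rose from −1.84 and −2.05 to −0.02 and −0.55 (1.66 ± 0.26, adjusted p = 0.00246), whereas Socs1 (−0.75 ± 0.18) and the kinase gene Jak3 (−0.97 ± 0.24) fell. Socs1 did not pass without any 1 array (highest adjusted p = 0.0967, without ERt2 replicate 1), nor Jak3 without ERt2 replicate 1 (0.137) or either RUNX1-ERt2 array (0.0750 and 0.0969).

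Immediate early and heat shock genes respond to handling as well as to signals. The median level of the list was −0.43 and −0.95 on the ERt2 arrays and 1.53 and −0.97 on the RUNX1-ERt2 arrays, so RUNX1-ERt2 replicate 1 stood alone. Egr1, a zinc finger factor, measured −3.11 and −6.09 against 2.23 and −1.63 and did not pass (4.90 ± 1.59, adjusted p = 0.0625), and Fos measured −1.07 and −2.50 against 1.45 and −2.51 (adjusted p = 0.551). Of 26 members only Hspe1, a mitochondrial chaperonin, passed (0.88 ± 0.24), and it did not without ERt2 replicate 1 (adjusted p = 0.149), ERt2 replicate 2 (0.0684) or RUNX1-ERt2 replicate 1 (0.183).

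Adhesion and niche receptor genes had 4 of 39 higher (10.3%, near the 10.2% of all genes) and 8 lower (20.5%, against 8.87%). The median was −0.26. The higher count was 2 without ERt2 replicate 2 and 6 without RUNX1-ERt2 replicate 1, and the median ranged from −0.40 to −0.09 without any 1 array. Beside Itgax, the integrin genes moved apart. Vcam1, the ligand of integrin alpha 4, measured 2.99 and 2.70 against −0.47 and −1.27 (−3.72 ± 0.61; other probe −4.28), and Itgb2, the beta chain that pairs with CD11c, 2.46 and 1.98 against 0.35 and 0.21 (−1.94 ± 0.25, adjusted p = 0.000805). So the alpha chain Itgax and its beta chain Itgb2 moved in opposite directions. Cdh1, E-cadherin, was well above background on 1 RUNX1-ERt2 array and on no ERt2 array, was at least 1.63-fold higher (adjusted p = 0.00846), and lost its call without ERt2 replicate 2 (adjusted p = 0.0550) and with normexp (0.407). The 18 genes of dendritic cells and MHC class II had 1 member higher, Itgax, and 3 lower, with a median of −0.73. These are 5.56% and 16.7%, against 10.2% and 8.87% of all genes. Among the lower ones were Flt3, the receptor of FLT3 ligand (−1.12 ± 0.28), and Batf3, a transcription factor of conventional dendritic cells (−2.14 ± 0.55). The lower count was 0 without ERt2 replicate 1, 4 without ERt2 replicate 2, 1 without RUNX1-ERt2 replicate 1 and 1 in the fit of the 4 arrays alone, and the median ranged from −1.18 to −0.29 without any 1 array. Flt3 did not pass without ERt2 replicate 1 (0.138) or RUNX1-ERt2 replicate 1 (0.129), and Batf3 without ERt2 replicate 1 (0.137) or either RUNX1-ERt2 array (0.0769 and 0.112).

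Stem and early progenitor genes had 2 of 26 higher and 5 lower (7.69% and 19.2%, against 10.2% and 8.87% of all genes, median −0.31). Without either replicate 2 the higher count was 0, the lower count was 2 without either replicate 1 and 3 without RUNX1-ERt2 replicate 2, and the fit of the 4 arrays alone had 1 higher and 2 lower. Hmga2, an architectural chromatin factor of fetal stem cells, measured 0.46 and 0.47 against −0.64 and −1.04 (−1.31 ± 0.24, adjusted p = 0.00547), and Kit, the receptor of stem cell factor, 4.34 and 4.02 against 3.33 and 3.54 (−0.74 ± 0.22, adjusted p = 0.0470). Of 20 Hox and Meis genes 1 was higher, Meis3 (0.97 ± 0.16, other probe 0.17), and 2 lower, Hoxb3 (−1.14 ± 0.28) and Pbx2 (−0.50 ± 0.15). These are 5% and 10%, against 10.2% and 8.87% of all genes. The median was −0.25 and ranged from −0.51 to −0.08 without any 1 array. Hoxb3 did not pass without ERt2 replicate 1 (adjusted p = 0.130) or RUNX1-ERt2 replicate 2 (0.140), and Pbx2 did not in most alternatives, and Meis3 did not with normexp (0.509). T and NK cell genes had 2 of 21 higher and 1 lower (9.52% and 4.76%, against 10.2% and 8.87% of all genes). Tcf7, a T cell transcription factor, was at least 2.01-fold higher, and the kinase gene Lck rose from −1.71 and −1.76 to −0.73 and 0.15 (1.44 ± 0.36). Nkg7, a granule protein also made in GMP, fell from 5.14 and 5.59 to 3.89 and 3.71 (−1.57 ± 0.27). The list's median was 0.64, and Tcf7 did not pass with normexp (adjusted p = 0.675). Lck did not pass without ERt2 replicate 1 (0.0800), ERt2 replicate 2 (0.0881) or RUNX1-ERt2 replicate 2 (0.134). None of 9 stroma and endothelium genes passed (smallest adjusted p = 0.0844, for the leptin receptor gene Lepr).

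The list of genes named as RUNX1 targets in other work did not move one way, with 2 of 23 higher and 6 lower (8.70% and 26.1%). Of all genes 10.2% were higher and 8.87% lower, and the median of the list was 0.14. Cdkn1a and Gfi1b were the higher members, and the lower ones included Csf1r, Elane, Gfi1, Hmga2 and Itgb2. The lower count was 3 to 5 without any 1 array.

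The second contrast asked how these changes compare with those of native Runx1. In native GMP, 2472 genes were higher in wt than in ko (13.8%) and 2065 lower (11.5%). Of the genes higher with RUNX1-ERt2, 376 were also higher in wt, which is 20.6% of the former and 15.2% of the latter, and 143 were lower in wt. Of those lower with RUNX1-ERt2, 439 were also lower in wt, 27.6% of the former and 21.3% of the latter, and 218 were higher in wt. The difference between the effects passed its own test in 3254 genes (18.2%), among them 1995 of the 3418 genes called in the transplanted comparison and 361 that passed in both comparisons with opposite sign. That count was 1881 without ERt2 replicate 2, 2003 without RUNX1-ERt2 replicate 2 and 1250 with normexp. Among the genes named here 41 passed in both comparisons, 26 in the same and 15 in the opposite direction.

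Genes that moved the same way included the antiviral synthetase genes Oas2 and Oas3. Oas3 differed by −2.86 with RUNX1-ERt2 and by −2.36 ± 0.15 between wt and ko, and Oas2 by −2.34 and −2.66 ± 0.24, and the difference between the effects did not pass (adjusted p = 0.225 and 0.644). Treml1 and Hmga2 were likewise lower in wt than in ko, by 4.31 and 1.89, and lower with RUNX1-ERt2. Clec4d (−1.30 ± 0.13 in wt) and Ccl24 (−2.11 ± 0.40) belong here too. Scin was higher by 5.70 ± 0.42 in wt and by 4.41 with RUNX1-ERt2, reaching −1.85 and 0.29 against a wt mean of 0.95 ± 0.47 (SD, n = 4). Ptgds was higher by 2.69 ± 0.24 in wt and Itgax by 1.35 ± 0.30. A p that misses the threshold for the difference does not show that the effects are equal.

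Other genes went in opposite directions. Podxl, a sialomucin of stem and endothelial cells, was at least 14.7-fold higher with RUNX1-ERt2 but lower by 3.93 (SE 0.62) in wt than in ko, where 1 of the 4 wt arrays was well above background. Tmod1, tropomodulin of the red cell skeleton, was at least 6.63-fold higher with RUNX1-ERt2 and, not well above background on any wt array, at least 1.30-fold lower in wt (adjusted p = 0.0118), and Col18a1, a basement membrane collagen, rose by 2.14 (SE 0.62) and was lower by 3.95 (SE 0.44) in wt. In the other direction Otogl, an otogelin-like gene, was at least 3.45-fold lower with RUNX1-ERt2. It was at least 4.18-fold higher in wt, since no ko array was well above background. Ttll9, of the tubulin tyrosine ligase-like family, was at least 11.6-fold lower with RUNX1-ERt2 and higher by 2.04 ± 0.22 in wt. Tmem178 was at least 2.82-fold lower with RUNX1-ERt2 and higher by 2.69 ± 0.33 in wt, but well above background on only 1 of the 4 ko arrays. Cx3cr1, Ccl9, Flt3 and Nkg7 were higher in wt by 3.01, 0.92, 1.08 and 1.38 and lower with RUNX1-ERt2. Cdkn2a and Cish were lower in wt by 3.05 and 1.97 and higher with RUNX1-ERt2. Cdkn2a was well above background on only 1 of the 4 wt arrays. With normexp the calls of Podxl, Tmod1, Col18a1, Otogl and Tmem178 in the transplanted comparison ended (adjusted p = 0.0906, 0.313, 0.400, 0.299 and 0.214), and Col18a1 also lost its call without ERt2 replicate 1 (0.119), ERt2 replicate 2 (0.143) or RUNX1-ERt2 replicate 2 (0.228).

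**Figure D5:**
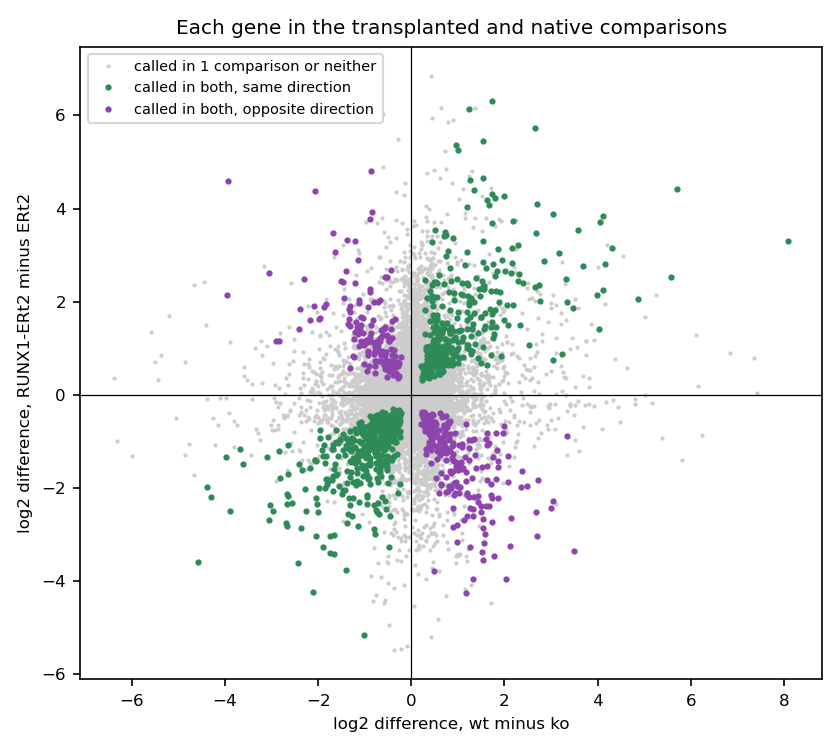
Each point is a gene, with its log2 difference wt minus ko on the x axis and RUNX1-ERt2 minus ERt2 on the y axis, coloured where it passed in both comparisons in the same direction (green) or in opposite directions (purple). Green points in the upper right (376 genes) and lower left (439) and purple points in the lower right (218) and upper left (143) lie on all sides of the origin.

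The promoters of the changed genes were searched for the core letters of the RUNX motif. TGTGGT and TGCGGT, and on the other strand ACCACA and ACCGCA, were counted in the 250 bases before the RefSeq start (GRCm38.p6) of genes with 1 listed promoter, which held 9043 of the 17905 genes tested by symbol. At least 1 match was present in 17.5% of tested genes and in 18.5% of all 22862 such promoters. It was present in 16.7% of 779 genes higher with RUNX1-ERt2, in 18.2% of 848 lower ones, and in 15.2% and 18.8% of those changed at least 4-fold. Shares near the background are no result about these genes, and a match is a description of letters, not a binding site. Promoters of strongly changed genes are shown with matches in capitals: Clic3 (chr2:25456593-25456842, plus strand), with matches at positions −230 and −155, Slc27a2 (chr2:126552774-126553023, plus strand), with a match at −238, and Slpi (chr2:164356508-164356757, minus strand), which fell and has none in this window.
Clic3: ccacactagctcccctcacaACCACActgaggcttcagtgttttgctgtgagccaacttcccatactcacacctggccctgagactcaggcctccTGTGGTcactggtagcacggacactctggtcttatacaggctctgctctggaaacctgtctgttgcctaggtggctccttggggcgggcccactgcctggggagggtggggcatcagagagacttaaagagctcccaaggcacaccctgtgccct
Slc27a2: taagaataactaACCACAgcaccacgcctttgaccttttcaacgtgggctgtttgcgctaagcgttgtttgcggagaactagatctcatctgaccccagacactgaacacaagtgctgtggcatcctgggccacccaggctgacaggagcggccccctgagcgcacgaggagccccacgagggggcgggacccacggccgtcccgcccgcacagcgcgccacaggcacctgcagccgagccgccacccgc
Slpi: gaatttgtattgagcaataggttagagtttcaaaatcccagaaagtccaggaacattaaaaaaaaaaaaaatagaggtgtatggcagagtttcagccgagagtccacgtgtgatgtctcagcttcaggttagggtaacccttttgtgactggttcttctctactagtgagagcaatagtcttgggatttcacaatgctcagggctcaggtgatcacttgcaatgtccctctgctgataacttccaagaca
Of the 63 named genes that passed and have 1 listed promoter, 15 hold a match.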

How the data were processed

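RNA of sorted GMP was hybridised to 1-colour Agilent mouse arrays, and 12 scanner files and a value table were used. The deposited intensity values are processed Cy3 signals after background subtraction by Agilent Feature Extraction 10.7.3.1, per the file headers (9.1 per the submitters' processing notes). The deposited value table holds, as a comparison with the scanner files showed, the ratio of the processed signal to the median of the array, and the authors state neither its scale nor its centring. Its wt and ko columns matched scanner files of other replicate numbers in the same group (1 with 3, 2 with 4). The ERt2 and RUNX1-ERt2 columns matched their own files. Replicate numbers given here are those of the scanner files. Intensities were taken as log2 minus the 75th percentile of each array, without control probes and outlier spots. Of 39429 probes, 27234 were named by accession, 3576 by symbol and 565 by synonym through RefSeq (GRCm38.p6), and 8054 kept the name in the file.

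A gene was read from its brightest probe and tested where all arrays of some group showed that probe well above background. limma 3.58.1 in R 4.3.3 fitted group means and a slide term for the native arrays over all 12 arrays, which share one estimate of the spread, with Benjamini-Hochberg adjustment at 0.05. The scripts were tested on simulated data. The same-numbered arrays of the 2 transplanted groups did not deviate together (correlation −0.19), and the fit has no replicate block. The number of arrays limits the precision.

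Named genes were the 12 largest rises and falls measured in both groups, the 4 largest lower bounds in each direction, up to 3 members of each of 30 gene lists with the largest change (or the member with the smallest p), the Runx genes with Cbfb, and the 6 genes with the largest fitted difference between the 2 comparisons among those of opposite sign. Alternatives per gene were computed for these; other list members were named after their values were seen, and some list members are not reported here. The members and lists were chosen with earlier results of these data known. Alternatives covered background correction, scaling, the value table, the filter on dim probes, the slide term, the replicate block, the arrays in the fit, the prior, the probe of a gene, outlier spots, probe GC and leaving out each array.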

Additional observations from a re-analysis of the deposited data

Results flagged for a closer look

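For 28 effects the difference between the comparisons, RUNX1-ERt2 minus ERt2 less wt minus ko, passed its own limma test. The 6 genes chosen for opposite signs had to pass this test to be chosen, so they are among the 28 by rule. In 17 of the 28 effects each of the 4 groups was well above background on at least 1 array. Among these the effect of RUNX1-ERt2 was the more positive one for Col18a1 by 6.09, Cdkn2a by 5.68, Cish by 3.62, Bex4 by 3.35, Itgax by 3.06, Usp18 by 2.89, Gsn by 2.83, Cdk1 by 2.30 and Ptgds by 1.42 (log2). It was the more negative one for Cx3cr1 (−5.43), Prss34 (−4.80), Ccl9 (−3.08), Nkg7 (−2.95), Flt3 (−2.20), Runx3 (−1.40), Phgdh (−1.30) and Runx2 (−0.79). Prss34 rose in both comparisons, by 3.29 with RUNX1-ERt2 and by 8.10 in wt over ko, and Runx2 and Runx3 were lower in both. The value of Cdk1 rests on a probe of 18.3% GC. Its other probes differed by only −0.245 and −0.035 between RUNX1-ERt2 and ERt2.

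For the other 11 a group was not well above background on any array, so the size of the difference is not given. The effect of RUNX1-ERt2 was the more positive one for Podxl, Tmod1, Slc27a2 and Gtse1 (adjusted p = 0.000959, 0.000854, 0.000511 and 0.000253). It was the more negative one for Ttll9, Otogl, Tmem178, Mreg and Rgs8 (3.81e-05, 6.22e-05, 0.00026, 0.000693 and 0.00112). The bounds do not set the direction for Npm3 (0.00405), at least 1.01-fold higher with RUNX1-ERt2 and higher by 0.55 in wt. Nor do they for Cdh1 (0.0102), at least 1.63-fold higher with RUNX1-ERt2 and at least 11.4-fold higher in wt. The probes of Gtse1 and Npm3 hold 21.7% and 25% GC.

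A single native array stood apart from the other 3 of its group for Lck, in wt replicate 3, the lowest at 0.19. This is 1 of 80 groups of 4 arrays over 42 genes, and chance sets apart about 1 group in 20.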

How the results depend on the processing

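The 1830 higher and 1588 lower genes became 726 and 665 with normexp background correction, 886 and 771 in a fit of the 4 transplanted arrays alone, and 1244 to 1376 and 935 to 1058 when 1 of the 4 arrays was left out. The 3254 genes whose effects differed between the comparisons became 1250 with normexp and 1881 to 2945 without 1 array. In native GMP the 2472 genes higher in wt became 1053 with normexp, 1398 with the array median and 1328 with the value table, and the 2065 lower ones became 922 with normexp. With the correction on probe GC 2024 genes were higher and 1350 lower. With the replicate block 1684 genes were higher and 1410 lower, although the numbers do not pair the samples. A block with crossed numbers, added after seeing the data, gave 2160 and 1924. Of 99 named genes that passed, 54 lost the call in at least 1 of up to 17 alternatives (the crossed numbers were not run per gene) and 36 without 1 array, and none of the differences changed sign. The causes were not tested. List medians changed sign without 1 array for megakaryocyte, B lineage, T and NK cell, interferon, stroma, cell cycle, ribosome and RUNX1 target genes, and for SOCS genes with the correction on probe GC. Dim probes limit sizes: 296 higher and 130 lower genes have only a bound, and 861 of the genes tested (4.81%), not well above background on any of the 4 arrays, have none.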
